A study of Mus musculus with 6 samples.

Results

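The heat shock and DnaJ chaperone genes were followed in the brains of mice that drank oil palm phenolics (OPP) or water. A probe was taken as a member when the platform annotation gave it a symbol starting with *Hsp* or *Dnaj*, leaving out *Hspg2*, which encodes the matrix proteoglycan perlecan, and *Hspbap1*, which encodes a protein that binds a small heat shock protein. The rule used no measured value. It found 80 probes of 61 genes among the 24048 probes of the array, 28 of them heat shock probes and 52 DnaJ probes. Of the 80 probes, 35 probes of 33 genes were above background and could be tested, against 7611 probes tested in all.

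The arrays held brain RNA of male BALB/c mice aged 12 weeks, all kept on a normal diet, of which 3 had drunk distilled water (controls) and 3 had drunk OPP for 6 weeks, at 1500 ppm expressed as gallic acid equivalent. Each array held 1 mouse, and the question was which transcripts differed between the groups. The methods state that more mice were hybridized than remain and that outlying arrays were removed by clustering, so what is seen within a group is the variation that this selection left. The methods do not say whether the whole brain was extracted, and since a cage held the same number of mice as a group, cage and treatment may coincide and then cannot be told apart.

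Heat shock proteins are molecular chaperones, which bind unfolded proteins and help them to fold, to be held soluble or to be handed to degradation. HSP70 proteins do this in cycles driven by ATP: DnaJ proteins (also called HSP40) bring them clients and start ATP hydrolysis, and HSP110 proteins help to release the nucleotide. HSP90 matures kinases and receptors, HSP60 folds proteins within mitochondria, and small heat shock proteins hold unfolding clients without ATP. In neurons, which do not divide and cannot dilute damaged proteins, the constitutive members are abundant, and several DnaJ proteins serve the synaptic vesicle cycle. Under stress, heat shock factor 1 (HSF1) binds heat shock elements in promoters and raises the inducible members together.

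The promoter sequences are shown for the members whose pattern across brains is described further on, since a heat shock element is the site through which HSF1 acts. RefSeq windows (GRCm38.p6) from 250 bases before to 50 bases after each start were at hand for 48 of the 61 member genes. They were searched on both strands for the heat shock element as GAANNTTCNNGAA or TTCNNGAANNTTC, a pair of patterns that may overlap each other, and for the endoplasmic reticulum stress element as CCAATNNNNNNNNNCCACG or, on the other strand, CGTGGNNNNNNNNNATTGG. Capitals in the sequences mark the letters that matched. The heat shock element was in 198 of all 32851 windows (0.603%) and in 6 of the 62 windows of members, which belong to 4 genes, *Hspd1*, *Hspe1*, *Hsph1* and *Dnajb6*. *Hspd1* and *Hspe1*, which encode HSP60 and its lid HSP10, lie head to head on chromosome 1 with starts 216 bases apart, so that their elements are the same letters read from either strand. RefSeq gives *Hspd1* another start 95 bases beyond that of *Hspe1*, whose window held neither pattern. Of the other HSF1 targets with a window, *Dnajb1*, *Hspb1* and *Dnaja1* held neither pattern in it. Below are the 250 bases before the *Hspe1* start (chr1:55087898-55088147, plus strand), in which both patterns overlap, the stretches holding the element of *Dnajb6* (chr5:29735844-29735873, plus strand) and of *Hsph1* (chr5:149636279-149636308, minus strand, after the start), and the 250 bases before the start of *Hspb8* (chr5:116422865-116423114, minus strand), where neither pattern was found:
Hspe1: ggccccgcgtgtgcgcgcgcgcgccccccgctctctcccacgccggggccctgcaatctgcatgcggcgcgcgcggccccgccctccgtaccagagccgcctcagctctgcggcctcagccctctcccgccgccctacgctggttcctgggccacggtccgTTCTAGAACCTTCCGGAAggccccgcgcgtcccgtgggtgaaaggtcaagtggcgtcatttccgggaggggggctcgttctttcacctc
Dnajb6: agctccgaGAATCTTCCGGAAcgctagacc
Hsph1: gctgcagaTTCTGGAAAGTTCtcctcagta
Hspb8: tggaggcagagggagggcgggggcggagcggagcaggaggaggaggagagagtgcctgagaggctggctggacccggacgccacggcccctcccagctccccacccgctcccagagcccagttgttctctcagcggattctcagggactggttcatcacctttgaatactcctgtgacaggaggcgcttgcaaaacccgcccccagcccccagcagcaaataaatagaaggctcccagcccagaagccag

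The endoplasmic reticulum stress element was in 39 of all windows (0.119%) and in 3 member genes, whose products work in that compartment: *Hspa5* (BiP, its HSP70), *Hsp90b1* (GRP94, its HSP90) and *Dnajc3* (P58IPK, a DnaJ cochaperone of BiP). Their sites are shown because these genes share the element and of the 3 only *Hsp90b1* was above background. Capitals mark the element in *Hspa5* (chr2:34772020-34772049, plus strand), in *Hsp90b1*, which held 2 copies (chr10:86705632-86705661 and chr10:86705527-86705556, minus strand), and in *Dnajc3* (chr14:118937822-118937851, plus strand):
Hspa5: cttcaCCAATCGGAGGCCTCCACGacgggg
Hsp90b1, far copy: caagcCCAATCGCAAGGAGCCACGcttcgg
Hsp90b1, near copy: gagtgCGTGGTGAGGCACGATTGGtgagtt
Dnajc3: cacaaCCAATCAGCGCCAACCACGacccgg
A match is a description of letters, and a window without one says only that these letters are not in it.

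The arrays gave 7442 to 7903 probes above background, of which 33 to 36 were members. Correlations between arrays lay between 0.969 and 0.987, and control replicate 2 was the control least like the others (0.974 and 0.973, against 0.987 between those 2). That array also carried granulocyte transcripts, with a mean log2 intensity over 4 of 5 granulocyte genes of 12.20, against 9.22 and 9.34 in the other controls and 8.18 to 8.20 in the OPP brains. Of the markers of the labelled tissue, 3 of 5 neuronal genes, 2 of 4 astrocyte genes and 4 of 4 oligodendrocyte genes were above background, and the probes of *Snap25*, *Nefl*, *Gfap* and *Slc1a2* were not. Intensities given here include background, and were scaled between arrays.

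Differences between control and OPP brains were small for most chaperone genes and ran in both directions. The median log2 fold change (OPP minus control) of the 35 tested member probes was 0.004, beside -0.003 over all tested probes, with 18 members above 0 and 17 below. Of the 35 members, 30 lay within 0.2 of 0 on the log2 scale, as did 6497 of all 7611 tested probes. The 95% confidence interval lay within a doubling and a halving for 34 members, all but *Hspb8*. These intervals are of intensities that include background, which understates the differences of dim probes. They therefore do not bound the change of the transcript. Standard errors ran from 0.09 to 0.28 with a median of 0.12.

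In limma, 0 member probes were higher at an unadjusted p under 0.05, where 1.68% of all tested probes were, and 2 were lower, *Hspb8* and *Dnajc4*, where 2.33% of all tested probes were. After Benjamini-Hochberg adjustment over all tested probes limma called 0 members, where it called 0.0131% of all probes, and the methods' t-test also called 0 after adjustment. Unadjusted, the methods' t-test gave 1 member higher (*Dnajb1*; 1.94% of all tested probes) and 2 lower (*Dnajc4* and *Dnajc12* probe 1; 2.73% of all tested probes), and thus did not include *Hspb8*. The limma count of lower members was 0 without control replicate 1, control replicate 3 or OPP replicate 1, where 1.64%, 1.55% and 1.68% of all tested probes were lower. It was 1 without OPP replicate 2 or OPP replicate 3, where 2.26% and 1.54% were, and 3 without control replicate 2, where 6.27% were. Without OPP replicate 1, 3 members were higher, which were *Hsph1*, *Hspa8* probe 3 and *Dnaja4*, beside 1.75% of all tested probes.

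Every OPP brain lay above every control brain for 1 member, *Dnajb1*, beside 4.24% of all tested probes, and below every control brain for 4 members, *Dnajc4*, *Dnajc12* probe 1, *Hspa12b* and *Hspb1*, beside 5.33% of all tested probes. Of the 35 members, the first count lies under its background share and the second above it. With 3 brains a group, the smallest p that the exact permutation test can give is 0.1, and these 5 probes reached it.

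**Figure D1:**
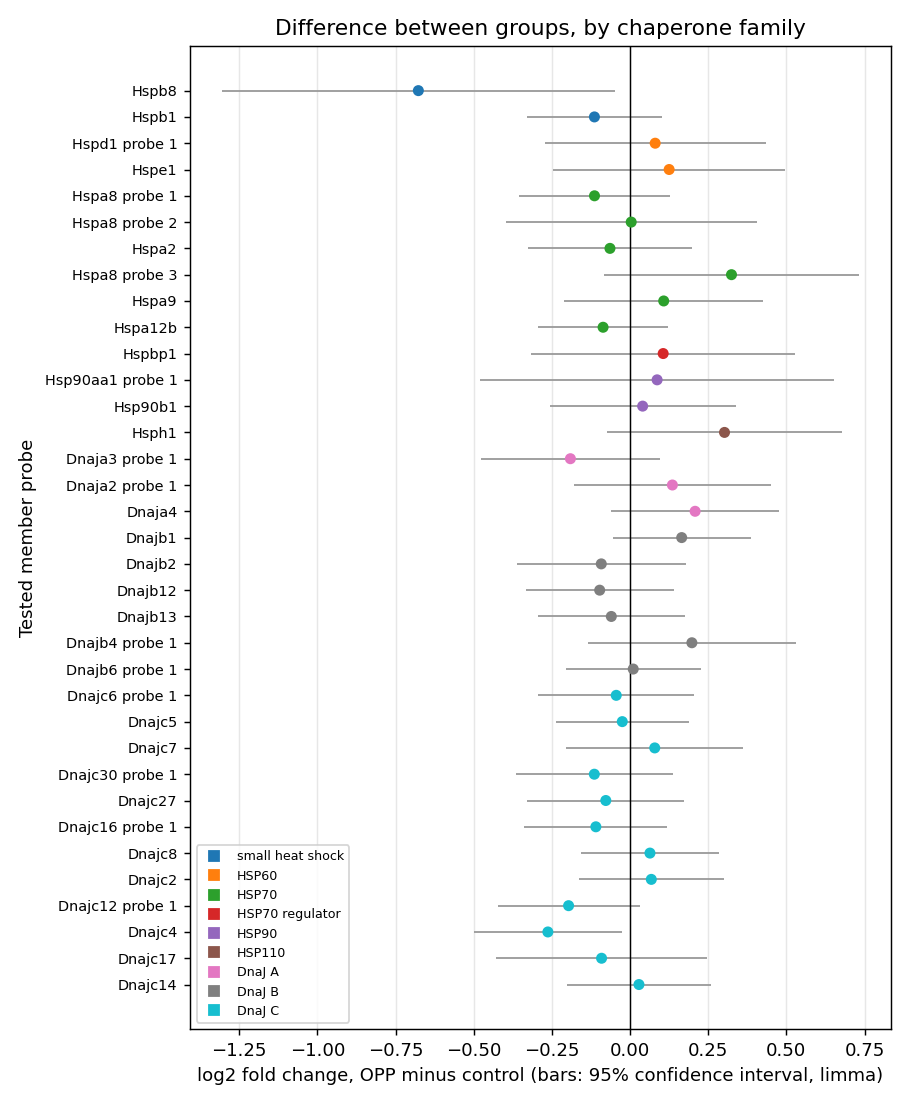
Log2 fold change (OPP minus control, horizontal axis) of the 35 tested member probes, coloured by family, with 95% confidence intervals from limma (3 brains a group). Only the intervals of *Hspb8* (-0.68) and *Dnajc4* (-0.26) leave out 0, and both probes had an adjusted p of 0.985.

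Among the small heat shock proteins, *Hspb8* had the largest difference of any member. HSPB8 works with the cochaperone BAG3 to hand misfolded proteins to autophagy. Its scaled intensity was 1190, 512 and 899 in the 3 control brains and 438, 645 and 475 in the 3 OPP brains. Control replicates 1 and 3 were high, while control replicate 2 lay among the OPP brains, so the groups overlapped. The means were 867 ± 340 and 519 ± 111 (SD, n = 3), which is -0.68 on the log2 scale (standard error 0.28, 95% interval -1.30 to -0.05, adjusted p = 0.985 from limma, exact permutation p = 0.2). The value was -0.41 without control replicate 1 and -1.01 without control replicate 2. The within-group spread of this probe (SD 0.485 on the log2 scale) was larger than that of 98.6% of the tested probes.

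*Bag3*, which is no member by its symbol, is given because its product is the partner of HSPB8. Its probe had scaled intensities of 893, 542 and 767 in the control brains and 564, 591 and 595 in the OPP brains (log2 fold change -0.30, standard error 0.17, adjusted p = 0.985 from limma). Control replicates 1 and 3 were again the high brains, and control replicate 2 again lay at the level of the OPP brains. Markers of brain regions were also uneven. The log2 intensity averaged over 4 of 9 cerebellar marker genes deviated from its mean over 6 brains by 0.92, -0.87 and 0.54 in the control brains and -0.02, -0.08 and -0.48 in the OPP brains. *Pcp2*, which marks Purkinje cells, had 2594, 212 and 1504 in the control brains and 809, 880 and 222 in the OPP brains, and the probes of *Gabra6*, *Cbln3* and *Calb1* were not above background on any array. The oligodendrocyte list, with 4 of 4 genes, averaged 11.04, 10.61 and 10.99 in the control brains and 10.70 to 10.76 in the OPP brains. Control replicates 1 and 3 were thus high for *Hspb8*, *Bag3* and both marker lists. The part of these tissue markers in the *Hspb8* difference was not tested, and in bulk RNA fewer cells of a type and less RNA per cell cannot be told apart.

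*Hspb1*, which encodes the small heat shock protein HSP25 of mice, had intensities of 346, 346 and 366 in the control brains and 306, 332 and 340 in the OPP brains. All 3 OPP brains were below the controls, by a small margin (log2 fold change -0.11, standard error 0.10, adjusted p = 0.985 from limma). The gap between the lowest control and the highest OPP brain was smaller than the spread within the OPP group. On the authors' background-subtracted values the log2 fold change of *Hspb1* was -0.26. The probes of *Hspb2* and *Hspb7*, which act in striated muscle, were not above background on any array, and *Hspb3* was above it in 1 OPP brain only (309, 292 and 255 in the OPP brains, 257, 289 and 271 in the controls). *Cryab*, the αB-crystallin gene, belongs to the same protein family under another name. It had 3034, 1974 and 2258 in the control brains and 2212, 2246 and 2901 in the OPP brains (log2 fold change 0.03), so that control replicate 1 and OPP replicate 3 were its high brains.

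**Figure D2:**
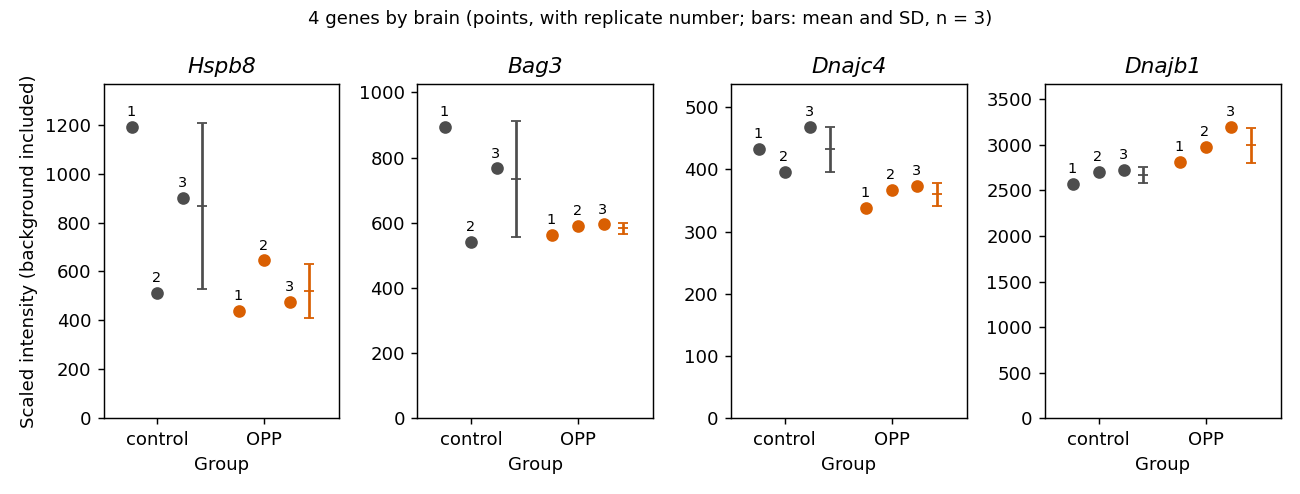
Scaled intensity (vertical axis, background included) of *Hspb8*, *Bag3*, *Dnajc4* and *Dnajb1* in each brain, with the replicate number beside each point and the mean and SD of each group (n = 3). For *Hspb8* and *Bag3* control replicates 1 and 3 lie above all other brains, while for *Dnajc4* and *Dnajb1* the groups do not overlap.

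The HSP70 genes are led by *Hspa8*, which encodes the constitutive HSC70 that, among other tasks, strips clathrin from endocytic vesicles. Its 3 probes were all above background and did not give the same difference. Probe 1 had 20614, 18539 and 20551 in the control brains and 16651, 18967 and 19636 in the OPP brains (log2 fold change -0.11, standard error 0.11). Probe 2 had 17200, 13789 and 18323 in the control brains and 12969, 16293 and 20729 in the OPP brains (log2 fold change 0.00, standard error 0.18). Probe 3 had 2717, 1977 and 2420 in the control brains and 2417, 2779 and 3802 in the OPP brains (log2 fold change 0.32, standard error 0.18). OPP replicate 1 was the lowest brain for probes 1 and 2, control replicate 2 for probe 3, and OPP replicate 3 the highest for probes 2 and 3. Adjusted p-values from limma were 0.985 or more for all 3 probes, and without OPP replicate 3 the log2 fold change of probe 3 was 0.14.

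The other tested HSP70 genes lay near 0. *Hspa2*, whose product is best known from meiosis in the testis of mice, had 3391, 4392 and 3840 in the control brains and 3592, 3772 and 3696 in the OPP brains (log2 fold change -0.06). *Hspa9*, which encodes the mitochondrial HSP70 mortalin, had 1290, 991 and 1209 in the control brains and 1464, 1152 and 1146 in the OPP brains (log2 fold change 0.11). Neither showed a split between the groups. *Hspa12b*, an atypical HSP70 gene of endothelial cells, had 377, 395 and 367 in the control brains and 364, 350 and 359 in the OPP brains. The groups did not overlap, but by little, with -0.09 as log2 fold change (standard error 0.09, adjusted p = 0.985 from limma). The nucleotide exchange factor gene *Hspbp1* had 398, 580 and 524 in the control brains and 587, 624 and 412 in the OPP brains (log2 fold change 0.11, standard error 0.19), with a low brain in each group. The probes of *Hspa5*, *Hspa13*, *Hspa14*, *Hspa12a* and *Hspa1l* were not above background on any array. The inducible pair *Hspa1a* and *Hspa1b* was not analysed here.

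*Hsp90aa1*, which encodes the inducible cytosolic HSP90α, was among the most variable members. It had 2065, 1290 and 1662 in the control brains and 1352, 1507 and 2602 in the OPP brains. The highest brain was 1.60 times the lowest among the controls and 1.92 times the lowest among the OPP brains, and the within-group spread (SD 0.431 on the log2 scale) was larger than that of 98.0% of the tested probes. The log2 fold change of 0.09 (standard error 0.25) became -0.20 without OPP replicate 3. *Hsp90b1* had 1429, 1578 and 1373 in the control brains and 1287, 1480 and 1768 in the OPP brains (log2 fold change 0.04, standard error 0.13). The other 2 probes of *Hsp90aa1* were not above background.

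*Hsph1*, the HSP110 gene whose product releases nucleotide from HSP70, had 2217, 1786 and 1813 in the control brains and 1880, 2441 and 2932 in the OPP brains. OPP replicates 2 and 3 were above all controls and OPP replicate 1 was within their range. Its log2 fold change was 0.30 (standard error 0.17, 95% interval -0.07 to 0.68, adjusted p = 0.985 from limma), 0.15 without OPP replicate 3 and 0.47 when OPP replicate 1 was left out. The probes of *Hspa4* and *Hspa4l*, the other HSP110 genes, were not above background on any array.

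The mitochondrial chaperonin pair, whose promoter is printed above, shared its highest brain but not its lowest. *Hspd1* probe 1 had 1440, 1311 and 1390 in the control brains and 1161, 1463 and 1828 in the OPP brains, and *Hspe1* had 452, 366 and 371 in the control brains and 380, 377 and 554 in the OPP brains. OPP replicate 3 was the highest brain for both genes. The lowest was OPP replicate 1 for *Hspd1* and control replicate 2 for *Hspe1*. The part of the promoter in this was not tested. The log2 fold changes were 0.08 (standard error 0.16) for *Hspd1* and 0.13 (standard error 0.16) for *Hspe1*, and both turned below 0 without OPP replicate 3 (-0.08 and -0.06). The second probe of *Hspd1* was not above background.

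Set side by side, most probes of HSF1 target genes spread widely between brains of one group, with OPP replicate 3 high. The list held 8 genes among the members, of which 7 had a tested probe (*Hsp90aa1*, *Hspa8*, *Hsph1*, *Dnajb1*, *Hspb1*, *Hspd1* and *Hspe1*, 9 probes), while the 3 probes of *Dnaja1* were not above background. OPP replicate 3 was the highest of the 6 brains for 7 of the 9 probes, all but *Hspb1* and *Hspa8* probe 1, whereas it was the highest brain for 22.2% of all tested probes. The lowest brain was control replicate 2 for 4 of the probes, OPP replicate 1 for 4 and control replicate 1 for 1. The mean deviation of the 9 probes from their own mean was 0.07, -0.19 and -0.03 in the control brains and -0.19, 0.01 and 0.33 in the OPP brains on the log2 scale. A high brain (OPP replicate 3) and a low brain (OPP replicate 1) were therefore of the same treatment.

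The median log2 fold change of the 9 probes was 0.09, beside -0.003 over all tested probes, and -0.08 without OPP replicate 3. Of the 9 probes 7 were above 0, and 0 had an unadjusted p under 0.05 in limma, while 1 did in the methods' t-test (*Dnajb1*). The median within-group spread of these probes was 0.255 on the log2 scale, against 0.143 over all tested probes. It was larger than that of 84.5% to 98.0% of the tested probes for 6 of the 9, but for *Hspb1*, *Dnajb1* and *Hspa8* probe 1 it was larger than that of only 6.24%, 9.08% and 28.7%. Log2 intensities correlated most with those of *Hsp90aa1* for *Hspe1* (Pearson's r of 0.94 over 6 arrays), *Hspa8* probe 2 (0.88) and *Hspa8* probe 3 (0.88). *Hspd1* (0.87), *Hsph1* (0.78) and *Hspa8* probe 1 (0.61) followed. *Dnajb1* (0.40) and *Hspb1* (0.28) were the least alike. These values describe 6 arrays that share their scaling. The granulocyte transcripts were high in control replicate 2, a low brain of this list, and were as low in OPP replicate 3 as in the other OPP brains. *Ttr*, the only tested gene of 4 choroid plexus and ependyma markers, had 9425, 3306 and 9876 in the control brains and 6751, 7060 and 10727 in the OPP brains, so that OPP replicate 3 was its highest brain and control replicate 2 its lowest. The mean over 4 of 4 striatal genes deviated from its mean over 6 brains by -0.74, 0.33 and -0.24 in the control brains and 0.62, 0.14 and -0.10 in the OPP brains on the log2 scale, with control replicate 2 and OPP replicate 1 high. The part of these markers in the order of the brains was not tested.

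**Figure D3:**
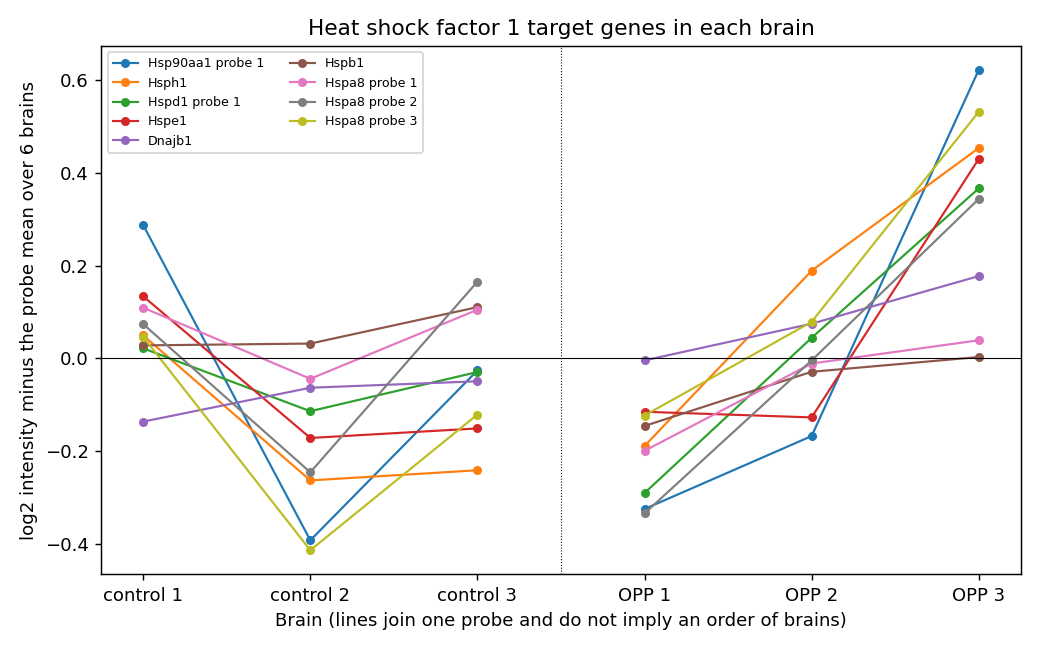
Log2 scaled intensity of the 9 probes of HSF1 target genes in each brain (horizontal axis), as the difference from the mean of that probe over 6 brains. Lines join the brains of one group for 1 probe and imply no order. OPP replicate 3 is the highest brain for 7 of the 9 probes, and OPP replicate 1 of the same group lies below 0 for every probe.

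The DnaJ genes varied less between brains than the heat shock genes. The median within-group spread on the log2 scale was 0.101 for the 21 tested DnaJ probes and 0.246 for the 14 tested heat shock probes. Over all tested probes it was 0.143. The median log2 fold changes of the DnaJ and heat shock probes were -0.04 and 0.06. This difference in spread is a description, since both sets are read from the same 6 arrays. The DnaJ probes were also dimmer, with a mean log2 intensity of 9.75 to 9.81 per brain against 10.45 to 10.76. Background can narrow the log2 spread of dim probes, and its part in this difference was not tested.

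*Dnajb1*, the main stress-inducible HSP40, was the member for which all OPP brains lay above all controls. It had 2570, 2703 and 2729 in the control brains and 2815, 2974 and 3192 in the OPP brains. The means were 2667 ± 85.5 and 2994 ± 189 (SD, n = 3), which is a difference of 0.17 on the log2 scale (standard error 0.10, adjusted p = 0.985 from limma, exact permutation p = 0.1). Its log2 fold change ran from 0.12 to 0.21 when single brains were left out, while on the authors' background-subtracted values the groups overlapped.

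Among the DnaJ A genes, which encode the HSP40 proteins closest to bacterial DnaJ, *Dnaja4* had 517, 514 and 571 in the control brains and 537, 627 and 694 in the OPP brains (log2 fold change 0.21, standard error 0.12). OPP replicates 2 and 3 were above all controls. *Dnaja2* probe 1 had 693, 565 and 643 in the control brains and 611, 655 and 835 in the OPP brains (log2 fold change 0.14, standard error 0.14). *Dnaja3*, whose product acts in mitochondria, went the other way with 2334, 1854 and 2326 in the control brains and 1735, 1874 and 2082 in the OPP brains (probe 1, log2 fold change -0.19, standard error 0.13). Control replicate 2 was its only control within the OPP range, and without that brain the value was -0.30. The second probes of *Dnaja2* and *Dnaja3* were not above background.

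The DnaJ B genes other than *Dnajb1* included *Dnajb2*, whose product guards neurons against protein aggregates, with 2023, 1561 and 1882 in the control brains and 1802, 1677 and 1626 in the OPP brains (log2 fold change -0.09). *Dnajb4* probe 1 was dim, with 318, 280 and 248 in the control brains and 275, 312 and 388 in the OPP brains, and was above background in 1 of 3 control brains and 2 of 3 OPP brains (log2 fold change 0.20, standard error 0.15). *Dnajb6*, whose product suppresses polyglutamine aggregation and whose promoter carries the element printed above, was above background in 1 brain of each group, with 295, 284 and 290 in the control brains and 277, 289 and 310 in the OPP brains (log2 fold change 0.01). Its groups did not separate. *Dnajb12*, of the endoplasmic reticulum membrane, and *Dnajb13*, of motile cilia, had log2 fold changes of -0.10 and -0.06.

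*Dnajc4*, a DnaJ C gene that the study names, was the other member with an interval that left out 0. It had 433, 395 and 467 in the control brains and 338, 367 and 373 in the OPP brains. All 3 OPP brains lay below all 3 controls. The means were 432 ± 36.1 and 360 ± 18.6 (SD, n = 3), which is -0.26 on the log2 scale (standard error 0.10, 95% interval -0.50 to -0.03, adjusted p = 0.985 from limma, exact permutation p = 0.1). On the authors' background-subtracted values the log2 fold change was -0.51, while the intensities given here include background. Without scaling between arrays it was -0.20 and its interval took in 0, as it did without control replicate 1 (-0.26), control replicate 3 (-0.20), OPP replicate 1 (-0.22) or OPP replicate 2 (-0.28).

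*Dnajc12*, whose human product is a cochaperone of the enzymes that hydroxylate aromatic amino acids, had 539, 559 and 536 in the control brains and 507, 487 and 435 in the OPP brains (probe 1). All OPP brains were below all controls, and the difference was -0.20 on the log2 scale (standard error 0.10, adjusted p = 0.985 from limma), which ran from -0.24 to -0.13 when single brains were left out. On the authors' background-subtracted values it was -0.31.

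The synaptic DnaJ C genes differed little. *Dnajc6* encodes the neuronal auxilin, which recruits HSC70 to clathrin coats, and its probe 1 had 10243, 8907 and 10627 in the control brains and 8858, 10071 and 9917 in the OPP brains (log2 fold change -0.04, 95% interval -0.29 to 0.21). *Dnajc5* encodes cysteine string protein, the HSC70 partner on synaptic vesicles, and had 4433, 4569 and 4410 in the control brains and 4640, 4299 and 4253 in the OPP brains (log2 fold change -0.02, 95% interval -0.24 to 0.19). The groups overlapped for both genes. Over the 7 tested probes of 5 neuronal and synaptic members the median log2 fold change was -0.02.

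The remaining 8 tested DnaJ C genes had log2 fold changes between -0.11 and 0.08. At the lower end were *Dnajc30* (mitochondrial, -0.11), *Dnajc16* (-0.11), *Dnajc17* (-0.09) and *Dnajc27* (-0.08). At the upper end were *Dnajc7*, which links HSP70 and HSP90 (0.08), *Dnajc2*, which acts at the ribosome (0.07), *Dnajc8*, which is found with the spliceosome (0.06), and *Dnajc14* (0.03). None of the 8 passed, and their groups overlapped.

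**Figure D4:**
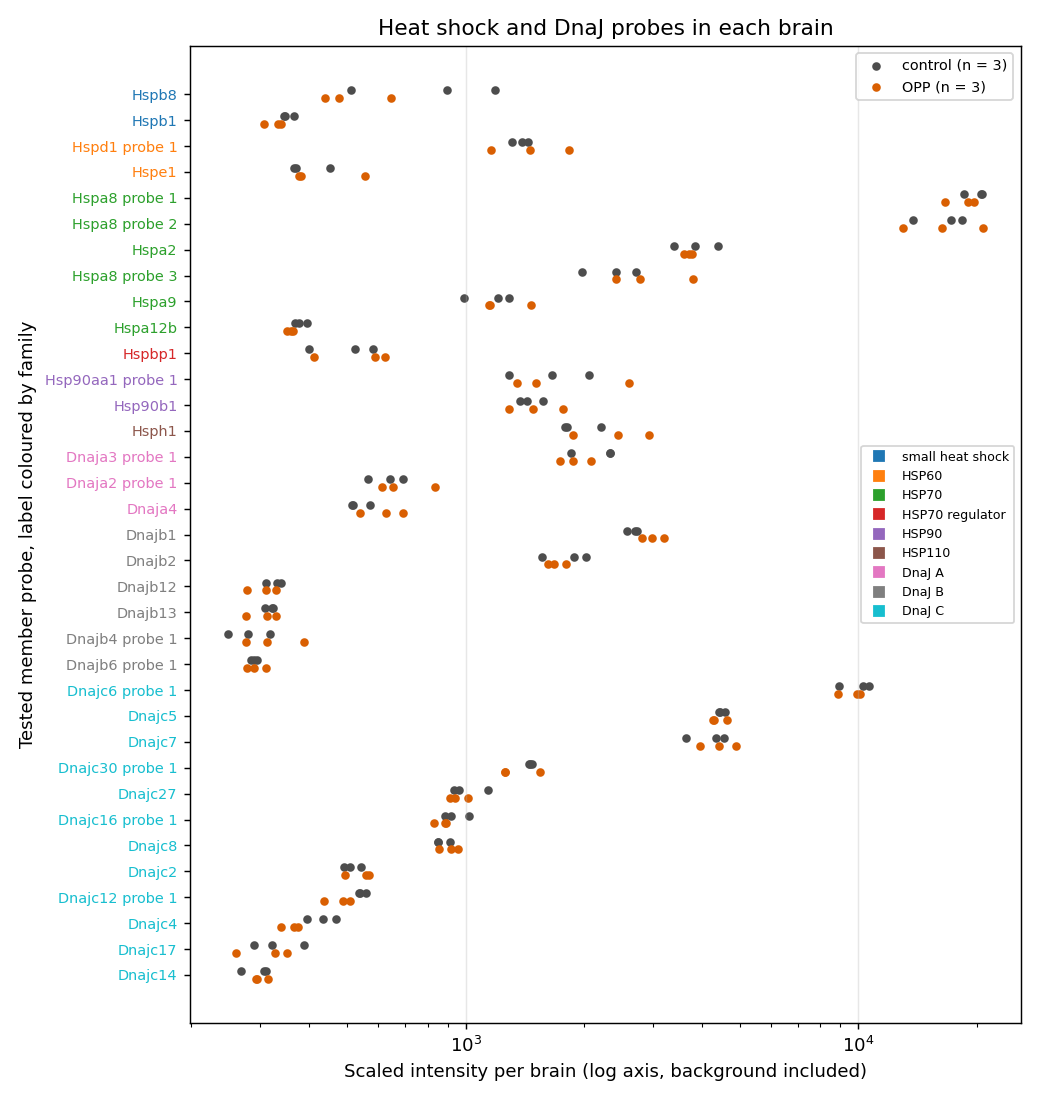
Scaled intensity (horizontal log axis, background included) of the 35 tested member probes in each of 3 control and 3 OPP brains, grouped by family. The points of most DnaJ C probes lie close together, *Dnajc17* being an exception, while those of *Hspb8* and *Hsp90aa1* probe 1 spread widely within a group.

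The 45 member probes that were not tested had mean intensities of 128 to 280, and 42 of them were above background on no array. They left 28 genes without a tested probe. Of the 15 genes with several probes, 10 had a single tested probe, 4 had none and only *Hspa8* had more, so a dim probe does not show that its transcript was missing. On the list of 7 endoplasmic reticulum members, which does not include *Dnajb12*, only *Hsp90b1* was tested, and the probes of *Hspa5*, *Hspa13*, *Dnajb9*, *Dnajc1*, *Dnajc3* and *Dnajc10* were not above background on any array. *Dnajc16* probe 2 was above background in 2 of 3 OPP brains (254, 298 and 317) and in 0 of 3 controls (283, 253 and 272), and *Dnajc5b* in 1 OPP brain. Among the dim probes nearest to the limit, *Dnajc16* probe 2 had a mean of 280 and *Hspb3* of 279, while the dimmest tested member probe had a mean of 291.

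Other genes of protein folding, listed as partners of the members, were also near the background of all probes. Among heat shock factors and cochaperones 0 of 21 tested probes passed at an unadjusted p under 0.05 in limma, with 12 above 0 and a median log2 fold change of 0.08. Over all tested probes 1.68% were higher and 2.33% lower at that threshold. Among chaperonin and prefoldin subunits 0 of 14 passed, with 7 above 0 and a median of -0.01. The groups did not overlap for *Cct2*, with OPP above, as for 4.24% of all tested probes. The *Cct2* probe had 274, 277 and 274 in the control brains and 286, 294 and 319 in the OPP brains. It was above background in OPP brains only, which is how it passed the filter. Among endoplasmic reticulum folding genes 1 of 12 was lower and 0 were higher, with 4 above 0 and a median of -0.07. That gene was *P4hb*, which encodes protein disulfide isomerase, with 2211, 2202 and 2290 in the control brains and 1887, 1878 and 1939 in the OPP brains. Its groups did not overlap, with OPP below, as for 5.33% of all tested probes. Its log2 fold change was -0.23 (standard error 0.09), with an adjusted p of 0.985 from limma.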

How the data were processed

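Brain RNA of 6 mice was hybridized to Illumina MouseRef-8 bead arrays. The authors summarized the beads into a deposited mean intensity per probe and array with BeadStudio (version 1.5.1.3 in the submitters' notes), with no background subtracted, and deposited a detection p-value beside each intensity. The deposited value table followed a straight line of the intensities on each array, after removal of 174 to 209 units of background, and was used as an alternative.

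Intensities were set to at least 10 and scaled between arrays by rank-invariant probes (4612 probes; factors 0.905 to 1.07), then log2 transformed. Probes with a mean detection level (1 minus the detection p-value) over 0.99 in either group were tested. OPP and control (3 arrays each, unpaired) were compared with limma 3.58.1 (lmFit, eBayes) in R 4.3.3, with Benjamini-Hochberg adjustment over 7611 probes. The methods name the Illumina Custom error model, for which limma stands in. An unpaired two-sided Student's t-test per probe on the log2 intensities was run as an alternative. The procedure was tested on simulated data with planted changes of a doubling or more. These are larger than any member difference in the main setting, so the test does not cover changes of the size seen here. The number of arrays limits the precision. The p-values set a difference against the spread between 3 mice a group, which limma moderates toward that of all tested probes. Exact permutation tests were two-sided.

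Symbols came from the platform annotation (19398 probes with 1 symbol, 4650 with none, 0 with several), and all 80 member probes matched RefSeq by Entrez identifier. Probes of a gene were kept apart and numbered by brightness. Named were tested members with an unadjusted p under 0.05 or groups that did not overlap, the 10 largest differences, the brightest probe of each family, all tested probes of such genes, *Dnajc4*, and members of the HSF1 and endoplasmic reticulum lists. *Bag3*, *Cryab*, *Pcp2*, *Ttr*, *P4hb*, *Cct2* and some members near 0 fall outside that rule and were chosen after their values were seen. The members and lists were chosen with earlier results of these data known. Alternatives covered scaling, background, filter, variance model, weights, pairing and each array left out. The array files used name no slide, so no slide was fitted.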

Additional observations from a re-analysis of the deposited data

How the results depend on the processing

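Adjusted over all probes, 0 members passed in limma under every alternative run. At an unadjusted p under 0.05 the main setting gave 0 members higher and 2 lower. The Student's t-test gave 1 higher. Leaving out single brains gave 0 to 3 higher (0.92% to 4.09% of all probes) and 0 to 3 lower (1.54% to 6.27%). Without scaling 1 was lower (0.933% of all probes), and with normexp background correction 1 was lower (2.19%; *Hspb8* had a log2 fold change of -0.90 and no longer passed). The deviations of same-numbered brains had correlations of -0.27, 0.05 and 0.17, and those of differently numbered brains ran from -0.31 to 0.29. With 3 brains a group these values cannot decide whether the numbers pair the mice. The methods name no pairing. With the replicate block 1 member was lower (1.91% of all probes) and *Dnajc4* no longer passed. Members with every OPP brain above every control numbered 1, or 0 on the authors' values (3.97% of all probes), 2 with no detection filter (4.71%) and 2 to 6 with a brain left out (7.09% to 11.7%). Those with every OPP brain below numbered 4, or 1 without scaling (1.97%), 6 with no detection filter (4.68%) and 4 to 10 with a brain left out (8.24% to 16.6%, the highest without control replicate 2). The median log2 fold change of the members was 0.004, and 0.065 without scaling, which moved the median of all probes to 0.06. Of 622 values of single members under alternatives, 603 stayed on their side of the threshold, 7 newly passed and 12 no longer did. All 12 were of *Hspb8* and *Dnajc4*, the only members that passed in the main setting. The other members did not pass there, and some alternatives changed no value, so a large number that stayed was mostly fixed in advance. The sign was the same in every setting for 19 of the 35 members. A block for slides was not run. Background is part of every intensity, so differences of dim probes are understated. The 42 member probes above background on no array gave no difference and do not bound the level of their transcripts.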
